A study of Homo sapiens with 3 samples.

Results

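The levels of 10 genes that write, maintain or erase DNA methylation or write the Polycomb mark were followed in the bladder cancer cell line 5637 and its gemcitabine-resistant derivative. They were the DNA methyltransferases DNMT1, DNMT3A and DNMT3B, the methylation cofactor UHRF1, the TET dioxygenases TET1, TET2 and TET3, and the Polycomb repressive complex 2 (PRC2) subunits EZH2, EED and SUZ12. They were chosen by symbol, and each of the 10 had 1 row among the 29960 genes of the table. The RNA came from single-cell clones, of which 1 parental clone (genotype WT in the labels) and 2 gemcitabine-resistant clones had a labelled library, named here parental 1, resistant 1 and resistant 2. All 3 were labelled as untreated at harvest and were grown in RPMI medium with 10% serum. The labels describe the resistant cells as made by acute gemcitabine treatment, whereas the methods of the study describe continuous exposure. Each library is 1 clone of 1 cell line, so a difference between the groups cannot be told apart from differences between clones that have nothing to do with the drug. The authors' group means, which also cover clones whose own columns carry no label here, are given beside the libraries for the members, the named related genes and the medians of their lists.

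DNMT1 copies methylation at CG dinucleotides onto the new strand after DNA replication, and UHRF1 brings it to half-methylated sites. DNMT3A and DNMT3B place methylation at unmethylated sites. The TET enzymes oxidise 5-methylcytosine, which leads to its loss, and they need iron and 2-oxoglutarate. PRC2 methylates histone H3 at lysine 27, with EZH2 as the catalytic subunit and EED and SUZ12 as the subunits without which it does not work, and it holds many developmental genes silent. Several of these genes, DNMT1, UHRF1 and EZH2 among them, are known to be transcribed most in dividing cells under control of E2F factors. Gemcitabine is a deoxycytidine analogue that is built into DNA and stops its synthesis.

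The 3 libraries held 14475531, 15836788 and 17461941 reads on genes. Of the 10 epithelial markers examined, 9, such as EPCAM and KRT7, did not pass the test described below, and the exception was the basal keratin KRT5, at 271 CPM (reads scaled to a common library size) in parental 1 and 9.79 and 13.8 CPM in the resistant libraries (log2 fold change -4.52, edgeR adjusted p = 0.0022). The group means of KRT5 were 2047 for resistant and 11544 for parental, a log2 ratio of -2.49, so the difference over all clones was smaller than in the labelled libraries. CLDN4 was at a log2 fold change of 1.35 and KRT7 at -1.05, and the log2 ratios of their group means were 1.25 and -0.29. The summed level of the 10 epithelial markers was 10265 CPM in parental 1, 8167 in resistant 1 and 8565 in resistant 2. The 8 immune markers found summed to between 1.38 and 2.08 CPM, and the 9 endothelial markers found to between 1.49 and 4.14 CPM. The 8 fibroblast markers found summed to between 148 and 173 CPM, nearly all of it the collagen genes COL1A1 and COL1A2. LUM and FAP had 0 reads in every library. THY1 had 0, 9 and 27 reads in parental 1, resistant 1 and resistant 2, and PDGFRA had 12, 5 and 19. COL3A1 and PDGFRB had at most 4 reads in any library. In bulk RNA, fewer cells of a kind and less RNA per cell cannot be told apart.

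The promoters are shown first because 4 of the 10 genes hold 1 or another form of the E2F recognition sequence there. RefSeq start sites (GRCh38.p14) matched all 10 genes by symbol and gave 22 windows, each from 250 bases before the start site to 50 bases after it. The windows were searched on both strands for 4 such forms, TTTCGCGC, TTTGGCGC, TTTCCCGC and TTTGGCGG, the last of which shares its first 7 letters with the second. A match was present in at least 1 window of DNMT1, UHRF1, EZH2 and SUZ12, and in 4.05% of the 27305 genes with a window. By window it was present in 5 of the 22, and in 3.35% of all 35116. These shares make no allowance for the richness of the member windows in CG dinucleotides, given below. A match was absent from the windows of the other 6 genes, which says only that these letters do not occur there. The stretches printed around the matches are chr19:10194948-10194981 (minus strand) for DNMT1, at chr19:4909461-4909500 and chr19:4909958-4910017 (plus strand) for UHRF1, at chr7:148884283-148884316 (minus strand) for EZH2 and at chr17:31936792-31936851 (plus strand) for SUZ12. No form was common to all 4 genes. The capitals mark the 8-letter match, read 5′ to 3′ on the gene's strand.
DNMT1: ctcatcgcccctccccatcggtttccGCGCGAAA
UHRF1 first window: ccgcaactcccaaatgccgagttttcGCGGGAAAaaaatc
UHRF1 second window: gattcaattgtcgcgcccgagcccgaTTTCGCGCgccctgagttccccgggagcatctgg
EZH2: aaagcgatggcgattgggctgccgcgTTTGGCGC
SUZ12: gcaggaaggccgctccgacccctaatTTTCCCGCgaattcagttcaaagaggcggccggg

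The match begins 2 bases before the start site in DNMT1, 14 and 160 bases before it in the windows of UHRF1 and 189 bases before it in SUZ12, and in EZH2 it lies just downstream of the start site. The member windows are also rich in CG dinucleotides, the substrate of the DNMT and TET enzymes. They held a median of 29 CG dinucleotides in 300 bases, from 3 in the only window of DNMT3B to 46, against a median of 14 over all 35116 windows. Which start sites these cells use was not tested, so a window need not be the promoter in use. A match is a description of the letters and was not tested as a binding site.

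Per length, UHRF1 and DNMT1 were the most abundant of the 10 transcripts and TET1 the least. In FPKM, which are fragments per kilobase of gene length scaled to the library total, parental 1 held 103 for UHRF1, 82.2 for DNMT1, 37.3 for EZH2, 32.9 for DNMT3A, 18.5 for SUZ12, 13.2 for EED, 10.4 for TET3, 3.95 for DNMT3B, 2.20 for TET2 and 0.677 for TET1. The order was the same in the resistant libraries but for 2 pairs of neighbours: DNMT1 stood above UHRF1 in both, and DNMT3A stood above EZH2 in resistant 2. EZH2 and DNMT3A were 32.7 and 24.0 FPKM in resistant 1 and 29.0 and 30.1 FPKM in resistant 2, so their order does not hold across libraries. TET3 made up most of the TET transcript, with 78.3%, 75.1% and 81.6% of the summed TET FPKM in parental 1, resistant 1 and resistant 2. TET1 made up 5.10%, 2.31% and 1.83%. DNMT1 was 69.1%, 71.8% and 75.5% of the summed DNMT FPKM, and DNMT3B 3.32%, 3.07% and 1.85%. Among the PRC2 core subunits EZH2 held 54.1%, 48.2% and 51.5%.

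**Figure D1:**
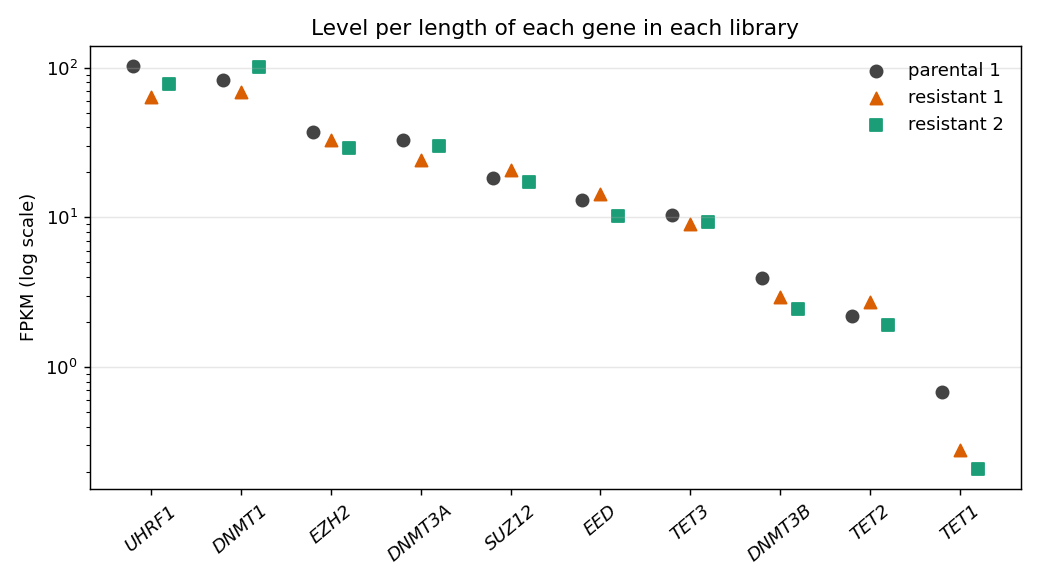
FPKM (log axis) of each of the 10 genes, ordered by parental 1, with 1 point for each of the 3 libraries. The genes span from under 1 FPKM (TET1) to about 100 (UHRF1, DNMT1), and the 3 points of a gene lie close together beside that range, with TET1 furthest apart.

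None of the 10 genes differed between resistant and parental cells at an adjusted p under 0.05 in edgeR's quasi-likelihood test across 14846 genes, nor by DESeq2 or limma-voom. In that test 78 genes, or 0.525% of those tested, were called, 20 higher and 58 lower, and with library totals alone 95 were called higher and 124 lower. At an unadjusted p under 0.05, 1 of the 10 (TET1) passed in edgeR and in limma-voom and 0 in DESeq2, where edgeR passed 9.62% of all genes. The levels were more often below than above the parental one. DNMT3A, DNMT3B, UHRF1, TET1, TET3 and EZH2, 6 of the 10, were lower in both resistant libraries than in parental 1, in CPM as well as in FPKM, against 34.5% of all genes tested. No member was higher in both, against 35.2% of all genes. For DNMT1, TET2, EED and SUZ12 the parental value lay between the resistant ones. The median fitted log2 fold change was -0.28 over the members and 0.03 over all genes tested. The median log2 ratio of the group means was -0.14 over the members and 0.01 over 14630 expressed genes. By group means 7 members were lower and 3 higher, and 48.6% of the expressed genes were lower. These means also cover clones without a label, so a drop in both labelled libraries need not hold in every clone. Standard errors ran from 0.33 to 0.53, and the smallest absolute fold change of any called gene was 2.05 on the log2 scale, so differences of the size seen here were not detectable with 3 libraries. The lone parental library is assumed in this test to vary like the resistant ones.

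**Figure D2:**
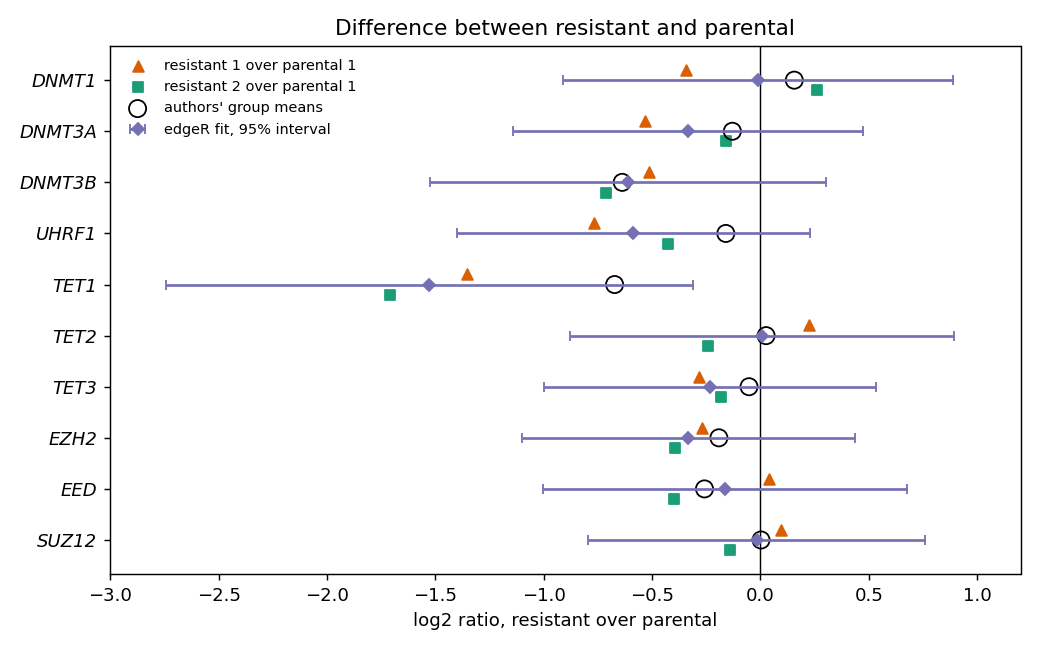
Log2 ratio of resistant over parental for each gene: diamonds and bars are the edgeR fit with its 95% interval, triangles and squares the resistant libraries over parental 1, and open circles the authors' group means. Every interval but that of TET1 spans 0, and in DNMT1, TET2, EED and SUZ12 the triangle and the square fall on opposite sides of 0.

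DNMT1 differed more between the resistant clones than between the groups. DNMT1 (ENSG00000130816, hg19 chr19:10244021-10341962, minus strand) had 456 CPM in parental 1, 359 in resistant 1 and 546 in resistant 2. The parental value lay between the resistant ones, and resistant 2 held 1.52 times the level of resistant 1 (95% interval 1.47 to 1.57, counting error only). The fitted log2 fold change was -0.01 ± 0.39 (SE, 95% interval -0.91 to 0.89, adjusted p = 0.999), with the opposite sign (0.04) under library totals alone. The group means were 7073 for resistant and 6347 for parental, a log2 ratio of 0.16. The absolute log2 difference between the resistant clones, 0.60, was larger than that of 72.3% of the genes tested, whose median was 0.36. The genes listed within DNMT1's bounds on the same strand, S1PR2 and a lincRNA, had at most 135 reads each, against at least 5868 for DNMT1.

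UHRF1, which recognises half-methylated CG sites, was lower in both labelled resistant clones. UHRF1 (ENSG00000034063, chr19:4903092-4962165, plus strand, typed in the table as a processed transcript) stood at 454 CPM in parental 1, 267 in resistant 1 and 337 in resistant 2. Both resistant values lay below the parental one, at a log2 fold change of -0.59 ± 0.36 (95% interval -1.40 to 0.23) that did not pass the test (adjusted p = 0.691). The group means were 5209 and 5818 for resistant and parental, a log2 ratio of -0.16, smaller in size than in the labelled libraries. They also cover clones without a label, in which UHRF1 need not be lower. The ratio of UHRF1 to DNMT1 in FPKM was 1.25 in parental 1, 0.932 in resistant 1 and 0.776 in resistant 2, so the cofactor exceeded the enzyme in the parental library alone.

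The de novo enzymes were at very different levels and both were lower in the labelled resistant clones, within the error of the test. DNMT3A (ENSG00000119772, chr2:25455845-25565459, minus strand) had 151 CPM in parental 1 and 104 and 135 CPM in resistant 1 and 2. Its log2 fold change was -0.33 ± 0.35 (95% interval -1.14 to 0.47, adjusted p = 0.881), and its group means were 1722 for resistant and 1883 for parental. DNMT3B (ENSG00000088305, chr20:31350191-31397162, plus strand) had 17.6 CPM in parental 1 and 12.3 and 10.7 CPM in the resistant libraries. The resistant values of DNMT3B differed by less than counting error (ratio 0.870, 95% interval 0.709 to 1.07) and lay below the parental value, at a log2 fold change of -0.61 ± 0.40 (95% interval -1.53 to 0.30, adjusted p = 0.719). Its group means, 167 for resistant and 260.4 for parental, gave a log2 ratio of -0.64. DNMT3L, the catalytically inactive partner of the de novo enzymes, was not tested because it had too few reads.

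Among the TET genes the lowest transcript, TET1, showed the widest difference of all 10 members in the labelled libraries. TET1 (ENSG00000138336, chr10:70320413-70454239, plus strand) had 91 reads in parental 1, 41 in resistant 1 and 34 in resistant 2, or 6.45, 2.51 and 1.96 CPM. Both resistant values lay below the parental one and differed from each other by less than counting error (ratio 0.780, 95% interval 0.480 to 1.26). The fitted log2 fold change was -1.53 ± 0.53 (95% interval -2.74 to -0.31), which is 2.88-fold lower, and 1.91% of the genes tested had a lower one. In edgeR the unadjusted p was 0.0197 and the adjusted p 0.390. In DESeq2 the unadjusted p was 0.0675 and the adjusted p 0.766. The group means were 60.8 for resistant and 97.5 for parental. Their log2 ratio of -0.67 was smaller in size than in the labelled libraries and close to the -0.64 of DNMT3B. The resistant mean lay above the unscaled 41 and 34 reads of the labelled clones. It also covers clones without a label, in which TET1 need not be lower.

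TET3, the most abundant TET gene, and TET2, which is often mutated in blood cancers, had smaller fitted differences. TET3 (ENSG00000187605, chr2:74229840-74335303, plus strand) had 117 CPM in parental 1 and 96.4 and 103 CPM in the resistant libraries. These resistant values lay below the parental one at a log2 fold change of -0.23 ± 0.33 (adjusted p = 0.925), and the group means were 1508 and 1564. TET2 (ENSG00000168769, chr4:106067032-106200973, plus strand) had 23.0 CPM in parental 1, 26.8 in resistant 1 and 19.4 in resistant 2, so the parental value lay in between. Its log2 fold change was 0.01 ± 0.39 (95% interval -0.88 to 0.89, adjusted p = 0.999), and its group means were 363 and 357. The antisense gene within TET2 had 0 reads in every library. The FPKM ratio of TET3 to TET1 was 15.4 in parental 1, 32.5 in resistant 1 and 44.6 in resistant 2.

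The catalytic subunit of PRC2 was slightly lower in both labelled resistant clones, within the error of the test. EED and SUZ12 had a resistant library on either side of the parental one. EZH2 (ENSG00000106462, chr7:148504475-148581413, minus strand), which carries the methyltransferase domain, had 139 CPM in parental 1 and 116 and 106 CPM in resistant 1 and 2. Its log2 fold change was -0.33 ± 0.34 (95% interval -1.10 to 0.44, adjusted p = 0.870), with group means of 1814 for resistant and 2072 for parental. EED (ENSG00000074266, chr11:85955586-85989855, plus strand), which binds the mark that PRC2 leaves, had 37.4 CPM in parental 1, 38.4 in resistant 1 and 28.3 in resistant 2, a fold change of -0.16 ± 0.37 on the log2 scale (adjusted p = 0.962). SUZ12 (ENSG00000178691, chr17:30264037-30328064, plus strand), the scaffold of the complex, had 85.1 CPM in parental 1, 90.9 in resistant 1 and 77.3 in resistant 2. For SUZ12 the log2 fold change was -0.02 ± 0.34 (adjusted p = 0.998), with the opposite sign (0.04) under library totals alone. The group means were 521 and 623 for EED and 1215 and 1212 for SUZ12, resistant before parental. A pseudogene that is a copy by name, SUZ12P, had 220, 205 and 292 reads against 1201, 1485 and 1343 for SUZ12. Their sequences were not compared, so the split of reads between them is uncertain.

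Because the resistant clones lay on either side of the parental one in 4 members, each gene was set beside the tested genes within 5 Mb of its start. For DNMT1 the clone difference was shared by its neighbours: 208 genes around it had a median log2 ratio to parental 1 of -0.33 in resistant 1 and 0.30 in resistant 2, and DNMT1 itself had -0.35 and 0.26. UHRF1 lies on the same chromosome, and its window overlaps that of DNMT1, so the neighbours are not wholly separate sets. The 212 neighbours of UHRF1 had medians of -0.31 and 0.41. UHRF1 itself stood at -0.77 and -0.43, which is 0.46 and 0.83 below them. Medians per clone were not taken over the whole chromosome. DNMT3B lay among genes that were low as a group, with a fitted median of -0.24 over 82 neighbours and -0.24 over chromosome 20. Set against its neighbours DNMT3B was -0.23 in resistant 1 and -0.43 in resistant 2. TET1 had neighbours near 0, with a fitted median of -0.03 over 57 genes, and was 1.41 and 1.63 below them in the resistant clones. Copy number was not measured, and its part in these values was not tested.

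**Figure D3:**
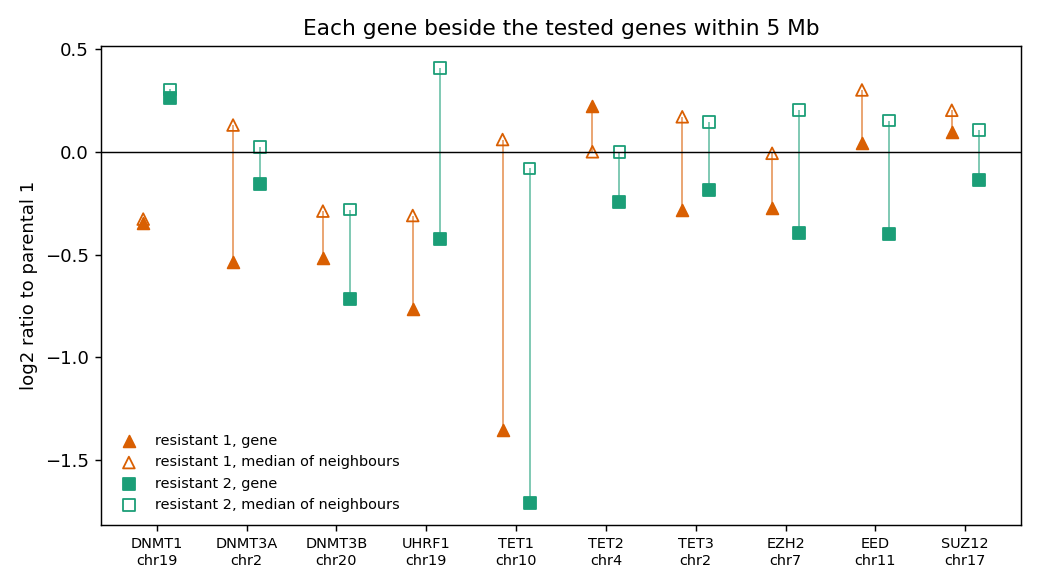
Log2 ratio to parental 1 in resistant 1 (triangles) and resistant 2 (squares) for each gene (filled) and for the median of the tested genes within 5 Mb (open), joined by a line. DNMT1 sits on its neighbours in both clones. Every other gene but TET2 sits below its neighbours in both, TET1 the furthest.

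The remaining members were set beside their neighbours in the same way. TET3 was 0.45 and 0.33 below its neighbours in resistant 1 and 2, EZH2 0.26 and 0.60 below, and DNMT3A 0.66 and 0.18 below. TET2 was 0.22 above its neighbours in resistant 1 and 0.24 below them in resistant 2, while the genes of chromosome 4 as a whole had a fitted median of 0.43. EED was 0.26 and 0.55 below 24 neighbours, and chromosome 11 had a median of -0.31. SUZ12 was 0.11 and 0.24 below 111 neighbours.

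Most genes that work with the methyltransferases were also at lower levels in both labelled resistant clones, and none of them was called. Of 14 partners of DNA methylation tested, 8 were lower and 2 higher in both resistant libraries. Over all genes tested, 34.5% were lower and 35.2% higher in both. The 14 partners had a median log2 fold change of -0.29, while their group means had a median log2 ratio of -0.07. UHRF2, the paralogue of UHRF1, had 132 CPM in parental 1 and 65.6 and 76.7 CPM in the resistant libraries (log2 fold change -0.89, adjusted p = 0.434), and its group means a log2 ratio of -0.63. MAT2B, the regulatory subunit of the enzyme that makes S-adenosylmethionine, had 128 CPM and then 97.9 and 73.1 CPM (log2 fold change -0.58, adjusted p = 0.687), and its group means a ratio of -0.23. Of 19 genes of TET cofactor supply and removal of oxidised cytosine, 9 were lower and 6 higher in both resistant libraries, with a median of -0.16 against -0.08 in the group means. IDH1, a source of 2-oxoglutarate, had 104 CPM in parental 1 and 58.0 and 33.7 CPM in resistant 1 and 2 (log2 fold change -1.18, adjusted p = 0.356), and CXXC5, a CXXC-domain protein, 31.4 CPM and then 16.9 and 10.3 CPM (log2 fold change -1.21, adjusted p = 0.387). The log2 ratio of the group means was -0.77 for both genes. The 10 readers of methylated CG sites had a median of -0.05 (0.0050 in the group means) and went in both directions. ZBTB4 was at a log2 fold change of 1.00 and ZBTB33 at -0.73, with group means at 0.69 and -0.46, and neither passed.

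The lists of Polycomb genes outside the PRC2 core had medians at or above 0. The 10 accessory PRC2 genes tested had a median log2 fold change of 0.01 (0.12 in the group means), with PHF1 at 0.67 and AEBP2 at -0.61, and at 0.47 and -0.33 in the group means. Among 26 genes of PRC1, the complex that ubiquitinates histone H2A, 12 were higher and 7 lower in both resistant libraries. Their median was 0.12 (0.11 in the group means). Over all genes tested, 35.2% were higher and 34.5% lower in both resistant libraries. Of the PRC1 genes CBX7, a reader of the PRC2 mark, was at 0.90 and YAF2 at -1.10, and at 0.62 and -0.70 in the group means. The 12 opponents of Polycomb tested had a median of 0.18 in the labelled libraries and 0.0091 in the group means. The demethylase KDM6A was at -0.42 and the deubiquitinase BAP1 at 0.41, and at -0.71 and 0.34 in the group means. None of the genes of these lists was called. Of 29 E2F and proliferation genes, 13 were lower and 3 higher in both resistant libraries, with a median of -0.09 and 0 called. CCNB1 was at -1.02 (143 CPM, then 85.3 and 55.1) and MCM6 at -0.93 (136 CPM, then 77.4 and 64.8), with group means at -0.63 and -0.68. The group means of the same 29 genes had a median log2 ratio of 0.00, against -0.09 in the labelled libraries. The part of proliferation in the levels of DNMT1, UHRF1 and EZH2 was not tested.

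**Figure D4:**
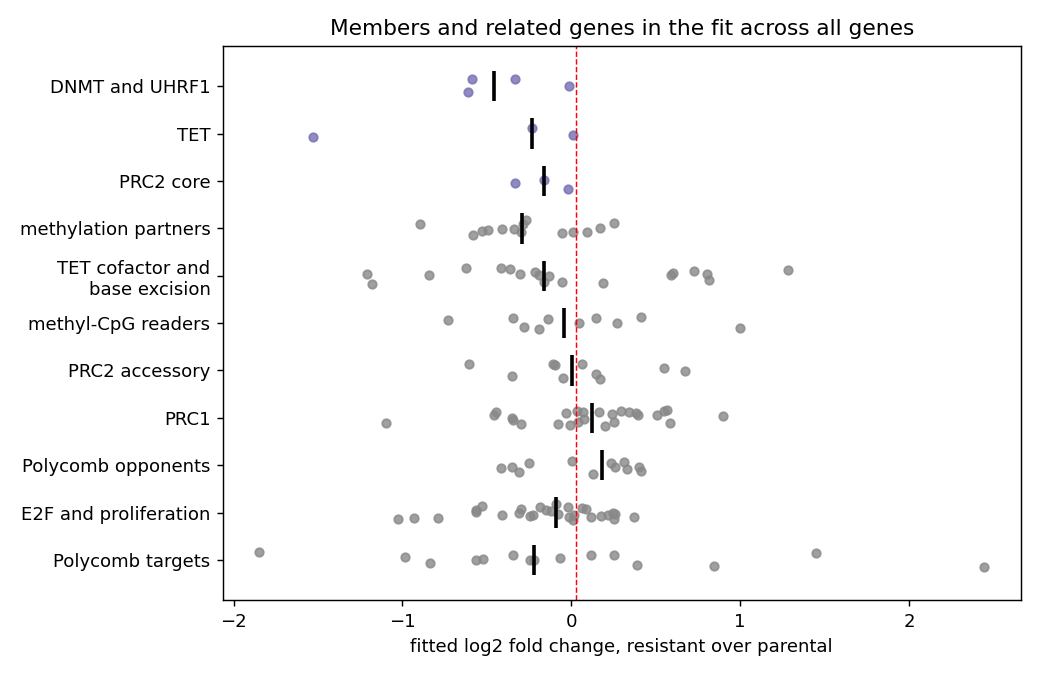
Fitted log2 fold change of resistant over parental, 1 point a gene, for the members (purple) and the related lists (grey), with the median of each list as a black bar and the median of all genes as a dashed line. The members and the methylation partners have medians below 0, as do the TET cofactor and base excision genes. The methyl-CpG readers, the E2F and proliferation genes and the Polycomb targets also have medians below 0. The PRC1 genes and Polycomb opponents have medians above 0.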

How the data were processed

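RNA of single-cell clones of 5637 cells was sequenced after poly-A selection, and the labels' processing notes name CASAVA 1.8 and the build hg19. The aligner, the counting tool and the annotation are not given in the sources used here, and whether the libraries kept strand is not stated. The authors deposited, per gene, raw read counts of each library without normalization. The FPKM that they deposited equalled the count divided by gene length and library total to within 4.93e-09, and were used only to compare levels between genes. The deposited group signal is the authors' mean of normalized counts from DESeq2 over all clones of a group, with no SD here. The 6 per-library columns without a sample label were not used, nor were the 3 columns of the authors' own comparison, which hold its fold changes and the p-values before and after adjustment.

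Counts of genes with at least 30 reads summed over the 3 labelled libraries (14846 genes) were tested, resistant against parental, with edgeR 4.0.16 (R 4.3.3), TMM factors of 0.974, 1.03 and 0.995 and the quasi-likelihood test, with Benjamini-Hochberg adjustment over all genes tested and a threshold of 0.05. The spread comes from the resistant pair (1 residual degree of freedom, moderated over all genes to a median of 8.40), and the lone parental library is assumed to vary like it. Fitted fold changes carry edgeR's default prior count. Each standard error was derived as the absolute log2 fold change over the square root of the test's F statistic. The 95% intervals of the fit were built from these standard errors. Clones stand as replicates, so p-values measure only the spread between these clones. A floor of 3 reads is 0.213, 0.184 and 0.173 CPM in parental 1, resistant 1 and resistant 2. Ratios of the resistant libraries carry exact conditional binomial 95% intervals, and intervals and floors cover counting error only. Ratios of group means used a pseudocount of 1, and genes with a mean of at least 10 for the summary. The script was run on simulated data that varied less between libraries than these data, so that run does not show its error rate here. DESeq2 1.42.0 and limma 3.58.1 were alternatives, beside other normalizations, filters, thresholds and leaving out each resistant library.

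All 10 members are named. From each related list every called gene was named, up to 5, and where fewer than 2 were called the 2 largest fold changes among genes with a mean count of at least 50. Genes outside this rule (EPCAM, LUM, FAP, THY1, PDGFRA, COL3A1, PDGFRB, DNMT3L and the overlapping genes and copies) were chosen after their values were seen. The members and lists were chosen with earlier results of these data known. Gene coordinates are hg19, and promoter windows are from RefSeq (GRCh38.p14), matched by symbol.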

Additional observations from a re-analysis of the deposited data

How the results depend on the processing

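No paired analysis was made. The study describes its clones as derived independently, so a replicate number shared by the groups marks no pair. The count of members called was 0 under every alternative, with TET1 left untested by a filter of at least 300 reads. The count of all genes called, 78 as reported, was 145 with DESeq2 size factors in edgeR, 219 with library totals only, 534 with no filter beyond 1 read, 153 with at least 300 reads, 248 with DESeq2 and 169 at an adjusted p under 0.1, and 52 with limma-voom. The share of these calls that were higher in resistant cells was 25.6% as reported and 31.7%, 43.4%, 51.1%, 51.6% and 49.2% under the first 5 of these settings, and 13.5% with limma-voom. The cause was not tested. The median log2 fold change of the members, -0.28 as reported, stayed below 0: -0.29 with DESeq2 size factors, -0.23 with library totals, -0.29 with no filter, -0.21 over the 9 members with at least 300 reads, -0.29 with DESeq2 and -0.14 from the authors' group means, and between -0.32 and -0.31 when 1 resistant library was left out. The median of the group mean ratios was -0.16 after all genes were centred at 0. Of 89 values of single members under the alternatives, 77 kept their sign. DNMT1 turned to 0.039 with library totals, 0.015 with at least 300 reads and 0.16 in the group means, and ran from -0.35 to 0.26 with 1 resistant library left out (0.26 without resistant 1). SUZ12 turned to 0.041, 0.0074 and 0.0030 under the same 3 settings and ran from -0.14 to 0.094 when 1 was left out (0.094 without resistant 2). TET2 was -0.00031 with no filter and -0.013 with limma-voom and ran from -0.24 (without resistant 1) to 0.22, and EED from -0.40 to 0.041 (without resistant 2). All 4 lay within their standard error of 0 in the reported test. Among TET1's alternatives the adjusted p ran from 0.193 with no filter to 0.766 with DESeq2.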

Other observations

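Genes that DNA methylation and Polycomb are known to hold silent were also read out, as values. Of 30 germline genes listed, 12 were in the table and 2 had enough reads to be tested. STAG3, a meiotic cohesin subunit, had 7.73 CPM in parental 1 and 4.04 and 3.91 CPM in the resistant libraries (log2 fold change -0.96, adjusted p = 0.601 in edgeR). TEX15, a testis gene, had 5.53 CPM in parental 1 and 4.71 and 4.20 CPM in resistant 1 and 2 (log2 fold change -0.31, adjusted p = 0.935). At least 9 of the 12 held at most 3 reads in each library, so differences in these were not detectable at this depth. The log2 ratio of the group means was -0.68 for STAG3 and -0.56 for TEX15.

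Of 30 developmental regulators known as Polycomb targets, 28 were in the table and 15 were tested, with a median log2 fold change of -0.22 and 0 called in edgeR. Of the 28, 16 had a mean of the group means of at least 10, with a median log2 ratio of -0.28. Among the 15 tested, 4 were higher and 8 lower in both resistant libraries, against 35.2% and 34.5% of all genes tested. FOXA2, an endoderm transcription factor, had 3.05 CPM in parental 1, 9.85 in resistant 1 and 23.4 in resistant 2 (log2 fold change 2.45, adjusted p = 0.217). CDKN1C, an imprinted cell cycle inhibitor, had 43.7 CPM in parental 1, 8.69 in resistant 1 and 15.5 in resistant 2 (log2 fold change -1.85, adjusted p = 0.136). In both genes the resistant libraries lay on 1 side of the parental one. The group means were 173 for resistant and 49.6 for parental in FOXA2, and 211 and 628 in CDKN1C.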
